A study of Mus musculus with 4 samples.

Results

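Crypt stem cell markers are genes whose RNA is high in the dividing cells at the base of small intestinal crypts. The set described here holds 8 genes: Lgr5, Ascl2, Msi1, Slc12a2, Tnfrsf19, Hopx, Bmi1 and Lrig1. Members were found by the gene symbol of the array's probes, with older symbols matched through RefSeq. All 8 had 1 probe each among the 16390 genes that could be named. Hopx was matched through its older symbol Hod. Each gene was therefore read by a single probe on each of 4 arrays.

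The arrays measured total RNA of sorted cells from the small intestine of male mice, with 1 array in each group. The Dclk1+ tumor sample pooled GFP-sorted cells from intestinal tumors of 7 mice of the genotype Dclk1CreERT2/+; ApcMin/+, aged more than 16 weeks. The Dclk1- tumor sample came from tumors of 1 mouse of that genotype, aged 17 weeks. The Dclk1+ normal sample pooled normal small intestine of 2 Dclk1CreERT2/+ mice aged 26 weeks, and the Dclk1- normal sample came from 1 such mouse of the same age. All 4 groups carry the Dclk1CreERT2 allele, and tumor groups add ApcMin, an Apc allele that leads to Wnt-driven adenomas. The sorting gene Dclk1 encodes a kinase related to doublecortin and is a marker of tuft cells, the chemosensory cells of gut epithelium. The labels describe neither the gates of the 3 other samples nor the source of the GFP. Genotype, histology and age differ together between tumor and normal samples, and the number of pooled mice differs too, so their parts cannot be told apart.

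Stem cells at the crypt base divide steadily and are kept by Wnt signals. Lgr5, a receptor for R-spondins, marks them, and Ascl2 is the transcription factor that works with Wnt signalling to hold that state. A second group of markers, to which Hopx, Bmi1 and Lrig1 have been assigned, was described in slower cells above the Paneth cells, although crypt base cells express several of them too. Several of the markers are Wnt targets.

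Levels are given as the spot's intensity less the average of the blank spots of its array, on a linear scale. Each array was scaled to a median of 100 over the 13115 probes above background on all 4 arrays. A spot was above background when it exceeded the blank mean by more than 2 SD of the blanks, which is a level of 6.31 to 7.38 depending on the array. Between 63.3% and 70.9% of 23473 probes passed. No group has a replicate array, so there is no test, and a ratio compares 2 samples rather than 2 conditions. As the nearest measure of technical error, the 24 spots that carry one positive control on an array had a coefficient of variation of 5.27% to 15.2%. The highest of these was combined with the blanks' SD into a spot error, given below as a range around a ratio. It leaves out differences between animals, sorts, labelling reactions and arrays. Between arrays the controls differed by more than it: after scaling, one averaged 23600 and 28156 in Dclk1+ and Dclk1- tumor, against 8477 and 23560 in Dclk1+ and Dclk1- normal, and the other 1159 and 745 in the tumor samples, against 810 and 2095 in the normal samples, in the same order. Where genes had several probes above background, the probes' log2 ratios differed by an SD of 0.858 to 1.28 depending on the comparison, so a single probe's ratio is less certain than its spot error. A probe's level also depends on its sequence, so levels are compared between samples and not between genes. In sorted pools, fewer cells that express a gene and less RNA in each cell cannot be told apart.

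From RefSeq's mouse promoter table (GRCm38.p6), 7 start sites of 5 of the 8 members were used. No entry was used for Lgr5, Msi1 or Slc12a2, so these genes were not searched. The count of 5 is of members used and not of all members that the table may list. The 250 bases before each start were searched on both strands for CTTTGA and CTTTGT, cores of the site bound by TCF and LEF factors, the DNA-binding partners of beta-catenin. Across all 32851 windows in the table, 13.8% held the first motif, 16.5% held the second and 27.6% held either. Among the 7 windows of the members only the second Tnfrsf19 start held one, as TCAAAG, the reverse complement of CTTTGA, beginning 201 bases before the start. The windows below are a selection: Tnfrsf19 and Ascl2 were higher in both tumor samples while Hopx differed in direction between Dclk1+ and Dclk1- cells. Lrig1 was also higher in both tumor samples, but its window, which held no motif, is not shown. For Tnfrsf19 the start with the motif is shown, and not the more upstream one, which held none. Capitals mark the motif, and all 3 genes lie on the minus strand. The window of Tnfrsf19 is chr14:61037988-61038237, that of Ascl2 is chr7:142969265-142969514 and that of Hopx, at the more upstream of its 2 listed starts, is chr5:77115124-77115373. A match describes letters in the window and no binding was measured.
Tnfrsf19: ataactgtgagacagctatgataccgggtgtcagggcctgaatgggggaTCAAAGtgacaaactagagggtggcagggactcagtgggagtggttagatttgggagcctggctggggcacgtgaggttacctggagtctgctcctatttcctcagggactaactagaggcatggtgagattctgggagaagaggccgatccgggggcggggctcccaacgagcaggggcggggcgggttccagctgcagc
Ascl2: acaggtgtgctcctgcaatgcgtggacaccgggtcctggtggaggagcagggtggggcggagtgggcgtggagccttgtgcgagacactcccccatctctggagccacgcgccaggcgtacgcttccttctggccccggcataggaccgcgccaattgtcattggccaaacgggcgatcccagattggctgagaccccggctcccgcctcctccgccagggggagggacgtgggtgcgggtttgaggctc
Hopx: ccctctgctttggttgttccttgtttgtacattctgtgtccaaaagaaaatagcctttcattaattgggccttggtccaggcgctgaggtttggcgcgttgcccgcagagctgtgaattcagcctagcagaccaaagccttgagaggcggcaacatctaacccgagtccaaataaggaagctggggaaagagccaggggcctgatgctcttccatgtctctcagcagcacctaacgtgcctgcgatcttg

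Of the 8 markers, 6 were above background on all 4 arrays, Lgr5 on 3 and Bmi1 on none. Lgr5 had a level of 142 in Dclk1+ tumor cells and 169 in Dclk1- tumor cells, against 56.6 in Dclk1+ normal cells and 2.93 in Dclk1- normal cells, where it was not above background. The tumor samples did not differ from each other beyond the spot error. Ascl2 stood at 1040 in the Dclk1+ tumor sample and 523 in the Dclk1- tumor sample, against 342 in the Dclk1+ normal sample and 254 in the Dclk1- normal sample. Each neighbouring pair in that order differed by more than the spot error, which leaves out differences between arrays. With the local background of each spot subtracted in place of the blank mean, Dclk1- tumor over Dclk1- normal was 0.684. The order of those samples thus depended on the processing.

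Msi1, an RNA-binding protein that represses translation of target messages, had levels of 201 in the Dclk1+ tumor sample and 60.5 in the Dclk1- tumor sample, against 218 in the Dclk1+ normal sample and 79.5 in the Dclk1- normal sample. Its levels thus divided mainly by the sort: both Dclk1+ samples lay above both Dclk1- samples, and the Dclk1+ samples differed by less than the spot error. The Dclk1- samples differed by slightly more than it, with normal 1.31-fold above tumor against a spot error factor of 1.26. Slc12a2, the sodium, potassium and chloride cotransporter of secreting epithelium, was at 1296 in the Dclk1+ tumor sample and 941 in the Dclk1- tumor sample, against 288 in the Dclk1+ normal sample and 124 in the Dclk1- normal sample. Tnfrsf19, a TNF receptor family member also called Troy, was at 278 in the Dclk1+ tumor sample and 306 in the Dclk1- tumor sample, against 19.1 in the Dclk1+ normal sample and 25.4 in the Dclk1- normal sample. Both genes divided by histology, with the tumor samples above the normal ones. For Tnfrsf19 neither the pair of tumor samples nor the pair of normal samples differed beyond the spot error.

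Hopx, a small homeodomain protein that does not bind DNA, followed neither division. Its level was 11416 in the Dclk1+ tumor sample and 5790 in the Dclk1- tumor sample, against 26892 in the Dclk1+ normal sample and 2434 in the Dclk1- normal sample, so that both tumor samples lay between the normal ones. Lrig1, a membrane protein that restrains ErbB receptors, had levels of 360 in the Dclk1+ tumor sample and 543 in the Dclk1- tumor sample, against 143 in the Dclk1+ normal sample and 220 in the Dclk1- normal sample. It was the one marker with the Dclk1- sample higher beyond the spot error in both pairs. With the local background subtracted, however, Lrig1 in Dclk1+ over Dclk1- normal was at 1.23. Bmi1, a subunit of the Polycomb complex PRC1, was at 1.51 in the Dclk1+ tumor sample and -2.24 in the Dclk1- tumor sample, against 1.33 in the Dclk1+ normal sample and -0.343 in the Dclk1- normal sample. All of these lie within 1 SD of the blank spots (3.15 to 3.69), so this probe gave no measurement and Bmi1 has no ratio below.

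**Figure D1:**
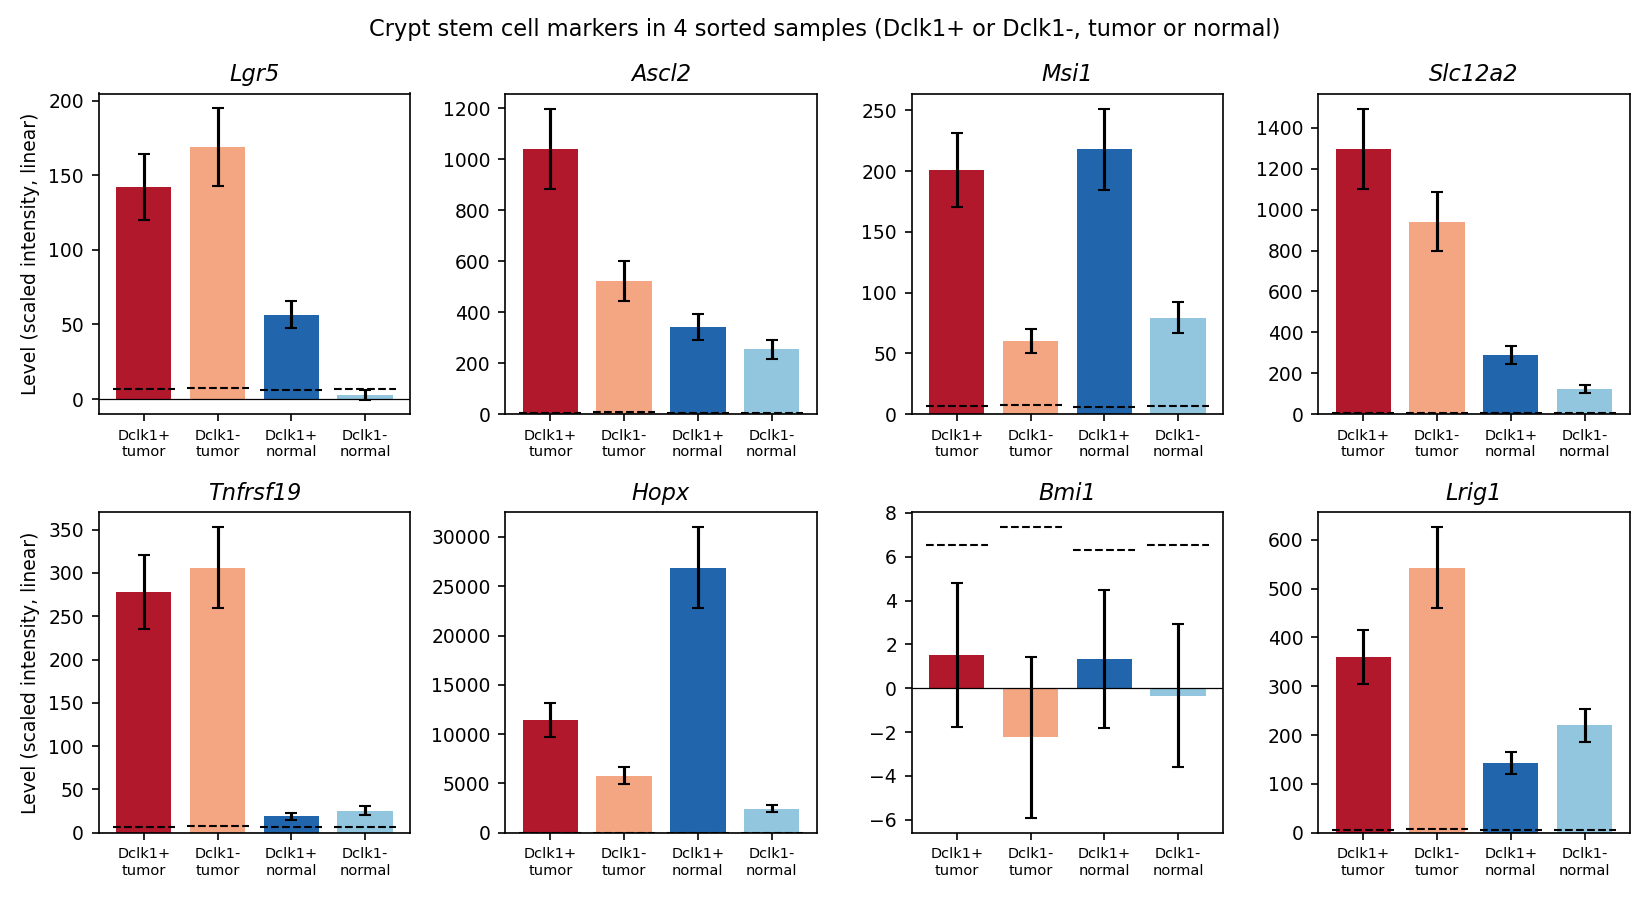
Levels of the 8 markers (scaled intensity on a linear axis starting at or below 0, 1 panel per gene) in tumor (left pair of bars) and normal cells (right pair), Dclk1+ before Dclk1- in each pair, 1 array per bar. Error bars are the spot error (blank SD and the 15.2% spread of control spots), dashed lines are the background threshold. Lgr5, Slc12a2, Tnfrsf19, Ascl2 and Lrig1 are highest in a tumor sample, Hopx peaks at 26892 in Dclk1+ normal cells and Bmi1 stays under the threshold in all 4 samples.

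The Dclk1+ sort was compared with the Dclk1- sort in tumors first. Msi1 alone was at least 2-fold higher in Dclk1+ tumor cells, by 3.32-fold (spot error range 2.65 to 4.15), and none of the 7 measured markers was 2-fold lower. Over all 12029 genes above background in either sample, 11.3% reached 2-fold in the higher direction and 14.0% in the lower one, so 1 of 7 is near the background share. The Msi1 ratio was 1.62 with normexp, a model-based background correction, at an offset of 50 followed by quantile normalization, and 1.41 with the local background of each spot subtracted, below the threshold in both. With the local background the single marker at least 2-fold higher was Ascl2, at 3.35, and Lrig1 was more than 2-fold lower, at 0.474. The all-gene shares were then 12.9% higher and 12.5% lower. Ascl2 (1.99-fold, range 1.60 to 2.47) and Hopx (1.97-fold, range 1.59 to 2.44) lay just under the threshold. Slc12a2 was at 1.38-fold (range 1.11 to 1.71), and the ratio of Lrig1 was 0.662 (range 0.534 to 0.821). Lgr5 had a ratio of 0.842 and Tnfrsf19 of 0.907, and both ranges include 1. No marker reached 4-fold in either direction, against 3.24% of genes higher and 4.24% lower.

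The median ratio of the 7 markers was 1.38 in this pair, against 1.08 for all genes. With the normalised intensities that the authors deposited, the all-gene median was 1.25, the background shares were 17.5% higher and 10.8% lower, and 3 markers passed 2-fold. The sorting gene itself differed: Dclk1 had a level of 148 in the Dclk1+ tumor sample and 26.4 in the Dclk1- tumor sample. Tuft cell markers moved with the sort, with 11 of 12 tested at least 2-fold higher in Dclk1+ tumor cells and summed levels of 51504 against 1274. On the same scale 11.3% of all genes were higher and 14.0% lower in this pair. Of 10 enterocyte markers tested, 6 were at least 2-fold lower and 0 higher, with summed levels of 53294 in Dclk1+ against 65965 in Dclk1- tumor cells. They did not all lie on that side. Fabp1, which held 38534 of the Dclk1+ sum, was 1.99-fold higher in Dclk1+ tumor cells, and Vil1 was 1.88-fold higher. The part of these differences in cell content in the marker ratios was not tested.

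In normal epithelium 4 of the 7 markers were at least 2-fold higher in Dclk1+ cells and none was 2-fold lower, against 19.6% higher and 16.8% lower among 12804 genes. Hopx was 11.1-fold higher (range 8.91 to 13.7). For Lgr5, which was not above background in Dclk1- normal cells, the ratio was at least 8.67 as reported, but it was 1.29 and 1.76 with normexp at offsets of 50 and 16, and 2.99 with the local background. With both normexp offsets the count of 4 fell to 1, Hopx, and the share of all genes higher fell to 5.75% at 50 and 8.47% at 16. Msi1 was 2.74-fold higher (range 2.20 to 3.41) and Slc12a2 2.33-fold higher (range 1.87 to 2.89, which reaches below 2). Hopx and Lgr5 also passed 4-fold, as did 6.31% of genes, and no marker was 4-fold lower, against 7.44% of genes.

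The other 3 markers stayed within 2-fold in the normal pair. Ascl2 had a ratio of 1.35 (range 1.09 to 1.67), Lrig1 of 0.648 (range 0.522 to 0.805) and Tnfrsf19 of 0.752 (range 0.558 to 1.02). With the local background subtracted they were at 1.41, 1.23 and 1.16, so Lrig1 and Tnfrsf19 crossed 1. The marker median was 2.33 and the all-gene median 1.10. Dclk1 had a level of 1579 in the Dclk1+ normal sample and 415 in the Dclk1- normal sample, so that the Dclk1- normal sample held more Dclk1 signal than the Dclk1+ tumor sample. All 13 tuft markers tested were at least 2-fold higher in Dclk1+ normal cells (summed levels 173270 against 976). Over all genes, 19.6% were higher and 16.8% lower in this pair. Cycling genes lay the other way, with 7 of 11 at least 2-fold lower and 0 higher, and summed levels of 3125 in Dclk1+ against 14231 in Dclk1- normal cells. Of 7 goblet cell genes tested, 6 were 2-fold or more lower in Dclk1+ normal cells, as were 10 of 12 enteroendocrine genes, with 0 higher in either list. Among 10 enterocyte genes, 7 were lower and 1 higher, Fabp1 (4.13-fold). The part of these cells in the marker ratios was not tested.

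**Figure D2:**
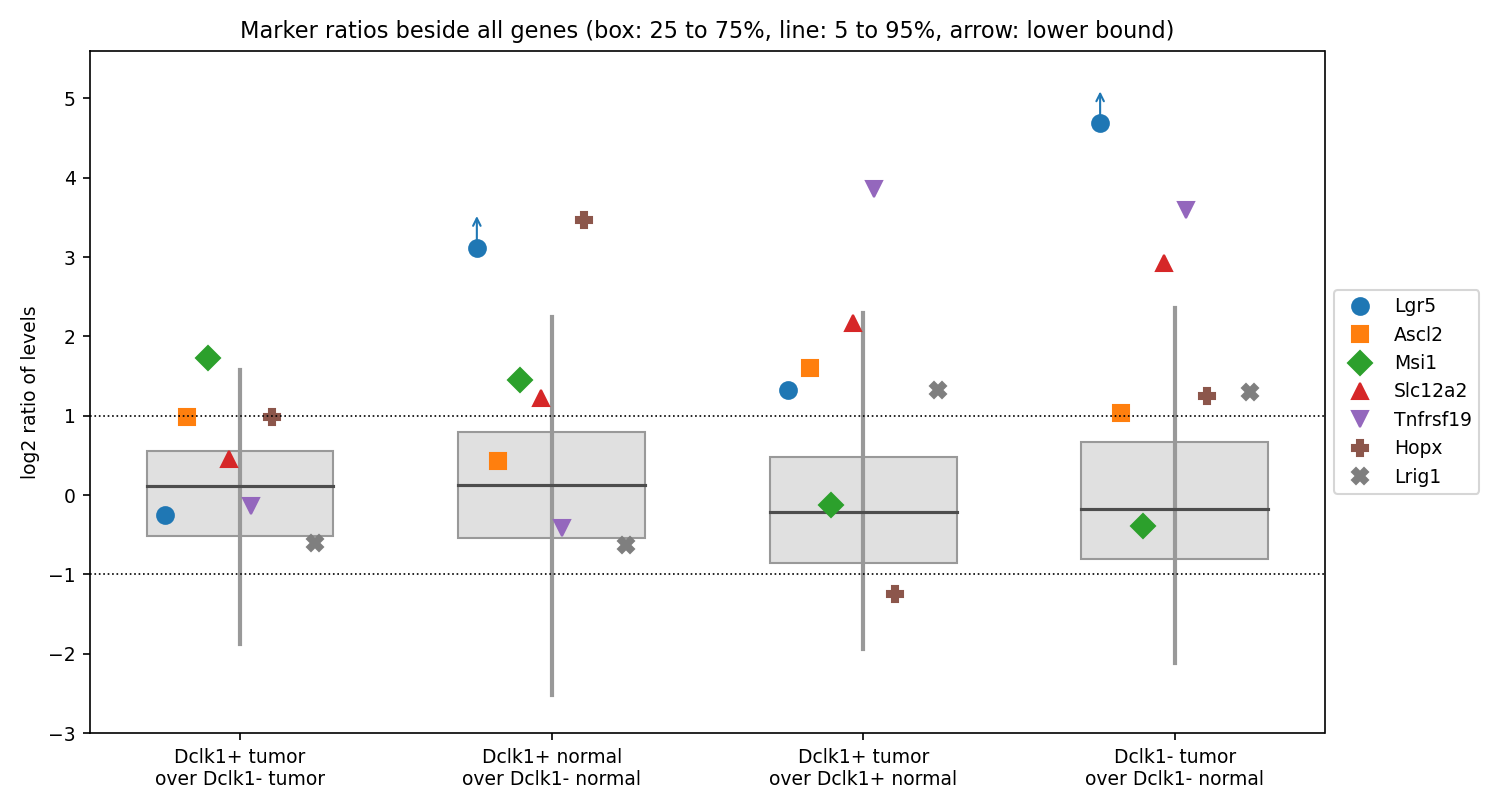
Log2 ratio of each measured marker in the 4 comparisons, beside the distribution over all genes above background in either sample (box from 25% to 75%, line from 5% to 95%, bar at the median). Dotted lines mark 2-fold, and arrows mark lower bounds. Lgr5, Tnfrsf19 and Slc12a2 lie above the 95% line in Dclk1- tumor over Dclk1- normal, and Hopx is the one marker beyond 2-fold in the lower direction, in Dclk1+ tumor over normal.

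The Dclk1+ over Dclk1- ratio itself differed at least 2-fold between tumor and normal tissue for 2 of the 7 markers, both lower in tumor. For comparison, 17.0% of 11452 genes had a ratio 2-fold or more higher in tumor than in normal tissue, and 19.5% had one 2-fold or more lower. Lgr5 had a ratio of 0.842 in tumor and at least 8.67 in normal tissue, and Hopx of 1.97 in tumor and 11.1 in normal tissue. The Hopx ratio in tumor was 0.178 of that in normal tissue. Ratios of Lrig1 (0.662 in tumor and 0.648 in normal tissue), Msi1 (3.32 and 2.74 in the same order) and Tnfrsf19 (0.907 and 0.752) were close in both tissues as reported. With the local background subtracted they were further apart for Lrig1 (0.474 and 1.23) and Msi1 (1.41 and 2.82). Tnfrsf19 was then at 0.921 and 1.16. With 1 array in each group the change of a ratio could not be tested.

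Tumor and normal cells were then compared within each sort. In Dclk1+ cells 5 of the 7 markers were at least 2-fold higher in tumor and 1 was lower, against 14.9% of 12805 genes higher and 20.7% lower. Tnfrsf19 was 14.5-fold higher (range 11.1 to 19.0), Slc12a2 4.50-fold (range 3.63 to 5.58) and Ascl2 3.04-fold (range 2.45 to 3.77). Lrig1 was 2.52-fold higher (range 2.03 to 3.13) and Lgr5 2.51-fold (range 2.01 to 3.14).

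Hopx was lower in Dclk1+ tumor than in Dclk1+ normal cells, with a ratio of 0.425 (range 0.342 to 0.526). Msi1 had a ratio of 0.923 and a range that includes 1. The marker median was 2.52, against 0.867 for all genes, and 6 of 7 markers lay above that all-gene median. Tnfrsf19 and Slc12a2 also passed 4-fold, as did 6.53% of genes, and no marker was 4-fold lower, against 4.60% of genes. With the local background of each spot subtracted in place of the blank mean, 2 markers were higher and 2 lower, the background shares became 27.5% higher and 16.9% lower, Lrig1 reversed to a ratio of 0.404, and Lgr5 (1.35) and Ascl2 (1.62) were below 2-fold. With normexp at an offset of 50, 3 were higher, against 4.34% of genes, and Lgr5 (1.38) and Lrig1 (1.66) were not among them.

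In Dclk1- cells 6 of the 7 markers were at least 2-fold higher in tumor and 0 lower, against 18.7% of 12165 genes higher and 19.4% lower. The ratio of Lgr5 was at least 25.9. Tnfrsf19 was 12.0-fold higher (range 9.37 to 15.5) and Slc12a2 7.61-fold (range 6.13 to 9.45). These 3 also passed 4-fold, as did 6.88% of genes, and none was 4-fold lower, against 5.75%. Lrig1 was 2.47-fold higher (range 1.99 to 3.06), Hopx 2.38-fold (range 1.92 to 2.95) and Ascl2 2.06-fold (range 1.66 to 2.55), and the ranges of all 3 reach below 2. Msi1 had a ratio of 0.761 (range 0.606 to 0.955). With the local background subtracted, 4 markers were higher, against 25.9% of genes, Lrig1 was at 1.05 and Ascl2 reversed to 0.684. With normexp at an offset of 50, 3 were higher, against 6.05% of genes, and Lgr5 (1.91), Ascl2 (1.58) and Lrig1 (1.78) were not. With the authors' deposited values 14.1% of genes were higher and 28.2% lower, and 4 of 7 markers were higher, without Ascl2 (1.70) and Hopx (1.96).

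In both sorts together, Lgr5, Ascl2, Slc12a2, Tnfrsf19 and Lrig1, 5 of the 7, were at least 2-fold higher in tumor, against 7.98% of the 11599 genes measured in both. Of these, Slc12a2 and Tnfrsf19 alone stayed past 2-fold in both with normexp at an offset of 50, and likewise with the local background subtracted. No marker was 2-fold lower in both, against 8.17% of genes. The 5 genes cover the Wnt-linked receptor Lgr5 and transcription factor Ascl2 as well as a transporter, a TNF receptor and an ErbB inhibitor. Hopx went in opposite directions, lower in Dclk1+ tumor cells and higher in Dclk1- tumor cells than in their normal counterparts.

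**Figure D3:**
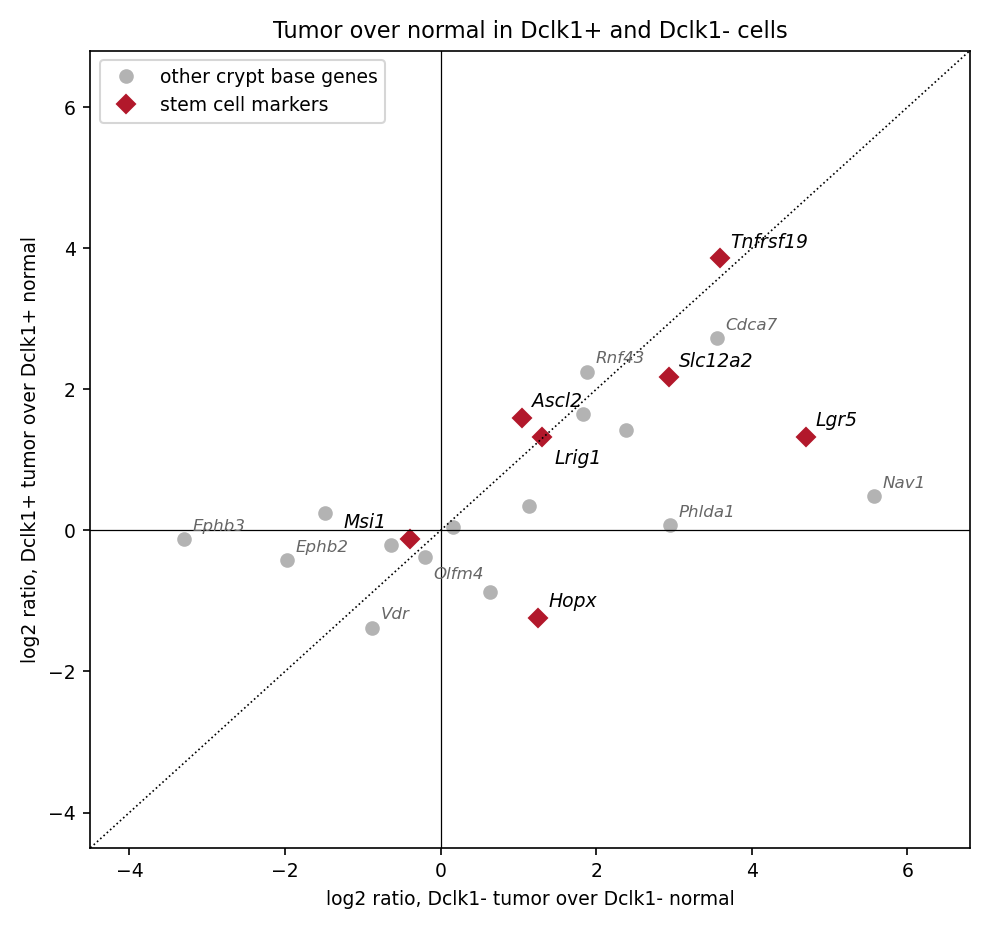
Log2 ratio of tumor over normal in Dclk1+ cells (vertical) against that in Dclk1- cells (horizontal) for the 7 measured markers (diamonds) and other crypt base genes (grey). The dotted diagonal marks equal ratios. The horizontal values of Lgr5 and Soat1 (unlabelled) and the vertical value of Cdca7 are lower bounds. Tnfrsf19 and Lrig1 lie near the diagonal, and Hopx is below 0 in Dclk1+ cells and above 0 in Dclk1- cells.

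Other markers differed between tumor and normal samples as well. Over all genes, 14.9% were higher and 20.7% lower in the Dclk1+ pair, and 18.7% higher and 19.4% lower in the Dclk1- pair. Stromal and endothelial genes were above background more often in tumor, with 4 of 8 tested at least 2-fold higher and 1 lower in Dclk1+ tumor than in Dclk1+ normal cells, and 5 of 7 higher and 1 lower in Dclk1- tumor than in Dclk1- normal cells. Their summed levels were 753 in the Dclk1+ tumor sample and 2023 in the Dclk1- tumor sample, against 177 in the Dclk1+ normal sample and 185 in the Dclk1- normal sample. Pecam1 and Cdh5, which define endothelium, were not above background in any sample, but Kdr, an endothelial VEGF receptor, was, at 18.9 in the Dclk1+ tumor sample and 28.9 in the Dclk1- tumor sample, against 64.0 in the Dclk1+ normal sample and 81.4 in the Dclk1- normal sample. It was thus the gene of that list lower in tumor. Paneth cell genes were at least 2-fold higher in tumor for 5 of 5 tested in Dclk1+ cells and 4 of 5 in Dclk1- cells, and summed to 34967 in the Dclk1+ tumor sample and 59761 in the Dclk1- tumor sample, against 338 in the Dclk1+ normal sample and 10871 in the Dclk1- normal sample. Cycling genes were at least 2-fold higher in Dclk1+ tumor than in Dclk1+ normal cells for 7 of 10 tested, with 0 lower, and for 3 of 11 in the Dclk1- pair, also with 0 lower. Their summed level was 7811 in Dclk1+ tumor against 3125 in Dclk1+ normal cells, and 11869 in Dclk1- tumor against 14231 in Dclk1- normal cells, where the median ratio was 1.02.

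Markers of differentiated cells differed between tumor and normal samples too. They stand beside the same all-gene shares, 14.9% higher and 20.7% lower in the Dclk1+ pair, and 18.7% higher and 19.4% lower in the Dclk1- pair. Of 13 tuft genes tested, 10 were 2-fold or more lower and 0 higher in Dclk1+ tumor than in Dclk1+ normal cells, with sums of 51504 against 173270, and Dclk1 itself was 10.6-fold lower. Between the Dclk1- samples 4 of 11 tuft genes were higher and 3 lower, with sums of 1274 in tumor and 976 in normal cells. Enterocyte genes were lower for 8 of 10 in Dclk1- tumor over normal (sums 65965 against 204757) and for 4 of 9 in Dclk1+ tumor over normal (sums 53294 against 185398), with 0 higher. Enteroendocrine genes were lower for 10 of 12 in Dclk1- tumor over normal, with 0 higher and sums of 2104 against 88188. In the Dclk1+ pair 6 of 10 enteroendocrine genes were lower and 2 higher, with sums of 3128 in tumor and 14268 in normal cells. Of 7 goblet genes, 4 were higher and 1 lower in Dclk1+ tumor over normal, and 1 was higher and 4 lower in Dclk1- tumor over normal. Immune genes summed to 3573 in the Dclk1+ tumor sample and 13382 in the Dclk1- tumor sample, against 6525 in the Dclk1+ normal sample and 38530 in the Dclk1- normal sample. H2-Aa alone held 6269 of the Dclk1- tumor sum and 35418 of the Dclk1- normal sum, so the sums are no measure of immune cell content. In Dclk1+ over Dclk1- normal, 4 of 8 immune genes were higher, among them Ptprc (362 against 14.1), and 3 lower, against 19.6% and 16.8% of all genes. The complement genes C1qa and C1qb, of macrophages, were 7.25-fold and 9.56-fold higher in Dclk1- tumor than in Dclk1- normal cells. In that pair 3 of 8 immune genes tested were higher and 3 lower, among the latter Cd74 (ratio 0.144) and Cd8a (0.0733). The macrophage receptor Csf1r was at 96.1 in Dclk1- tumor and 134 in Dclk1- normal cells. In the Dclk1+ pair 0 of 8 immune genes were higher and 3 lower. The part of these cells in the marker ratios was not tested.

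The wider crypt base signature, a list of 22 genes kept apart from the 8 markers, had 20 genes on the array. In Dclk1+ tumor over Dclk1+ normal cells 4 of 16 tested were at least 2-fold higher and 1 lower, with a median ratio of 1.04. In Dclk1- cells 7 of 16 were higher and 3 lower, with a median of 1.34. The shares over all genes were 14.9% higher and 20.7% lower in the Dclk1+ pair, and 18.7% higher and 19.4% lower in the Dclk1- pair. Rnf43, a ubiquitin ligase that removes Wnt receptors, was 4.75-fold higher in Dclk1+ tumor cells (228 against 48.1) and 3.69-fold higher in Dclk1- tumor cells (202 against 54.7). Cdca7, a gene of dividing cells, was at least 6.63-fold higher in Dclk1+ tumor (41.8) and 11.7-fold higher in Dclk1- tumor cells (154 against 13.1). The EphB receptors, which position cells along the crypt, lay lower in Dclk1- tumor cells, with Ephb3 at 195 against 1920 and Ephb2 at 291 against 1142.

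Olfm4, a secreted protein abundant in crypt base cells, was nearly level over the samples, at 364 in the Dclk1+ tumor sample and 420 in the Dclk1- tumor sample, against 471 in the Dclk1+ normal sample and 481 in the Dclk1- normal sample. Between the sorts, 1 of 15 signature genes was at least 2-fold higher and 2 lower in Dclk1+ tumor cells, and 5 of 17 higher and 3 lower in Dclk1+ normal cells, against 11.3% and 14.0% of all genes in tumor and 19.6% and 16.8% in normal tissue. Nav1, a neuron navigator protein, stood at 1746 in Dclk1+ against 46.6 in Dclk1- normal cells. Phlda1, a pleckstrin homology domain protein, stood at 2486 in Dclk1+ against 258 in Dclk1- normal cells. Ephb3 lay the other way, at 180 in Dclk1+ and 1920 in Dclk1- normal cells.

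Relatives of Lgr5 were read as well. Lgr4, the R-spondin receptor found more widely in the epithelium, was not above background in any sample, so its probe gave no measurement. Lgr6 was at 33.2 in the Dclk1+ tumor sample and 41.2 in the Dclk1- tumor sample, against 36.3 in the Dclk1+ normal sample and 105 in the Dclk1- normal sample. Its highest level thus lay in the sample in which Lgr5 was not measurable. Among the 21 Wnt and R-spondin input genes on the array, 1 of 15 tested was at least 2-fold higher and 1 lower in Dclk1+ tumor than in Dclk1+ normal cells. In Dclk1- cells 2 of 14 were higher and 4 lower. All genes had 14.9% higher and 20.7% lower in the first of these pairs and 18.7% higher and 19.4% lower in the second. Lef1, a Wnt-responsive transcription factor, was at 29.2 in Dclk1- tumor cells, at least 4.48-fold higher than in Dclk1- normal cells, and was not above background in the 3 other samples.

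Notch signalling also maintains crypt stem cells. Notch1, a receptor of that pathway, was at 162 in the Dclk1+ tumor sample and 168 in the Dclk1- tumor sample, against 64.3 in the Dclk1+ normal sample and 18.7 in the Dclk1- normal sample. That is 2.51-fold higher in Dclk1+ tumor and 8.97-fold higher in Dclk1- tumor cells than in their normal counterparts. Of 10 Notch genes tested, 2 were higher and 2 lower in Dclk1+ tumor over normal, and 1 higher and 1 lower in Dclk1- tumor over normal. That is close to the all-gene shares of 14.9% and 20.7% in the Dclk1+ pair, and not above those of 18.7% and 19.4% in the Dclk1- pair.

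Although Bmi1 was not measurable, its partners in PRC1 were. Of 12 tested, 5 were at least 2-fold higher and 0 lower in Dclk1- tumor over Dclk1- normal cells, and 1 higher and 3 lower in Dclk1+ tumor over Dclk1+ normal cells. The all-gene shares were 18.7% higher and 19.4% lower in the Dclk1- pair, and 14.9% higher and 20.7% lower in the Dclk1+ pair. Rnf2, the ubiquitin ligase subunit, was at 230 in Dclk1+ tumor and 290 in Dclk1- tumor, against 70.3 in Dclk1+ normal and 37.5 in Dclk1- normal cells. Phc1, a Polyhomeotic subunit, was higher in the Dclk1+ sample of both pairs, at 781 against 300 in tumor and 449 against 114 in normal tissue.

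Of the genes of ErbB signalling, which Lrig1 restrains, 2 of 8 tested were lower by 2-fold or more in the Dclk1+ sample of the tumor pair and 5 of 9 in that of the normal pair, with 0 higher in either, against 14.0% of all genes lower in tumor and 16.8% in normal tissue. Egfr, the receptor for epidermal growth factor, was at 86.0 in Dclk1+ against 442 in Dclk1- tumor cells, and at 6.91, just above the threshold of 6.31, in Dclk1+ against 929 in Dclk1- normal cells. Errfi1, a feedback inhibitor of Egfr, was at 879 in Dclk1+ against 2386 in Dclk1- tumor cells. The Lrig1 relative Lrig3 was at 246 in the Dclk1+ tumor sample and 421 in the Dclk1- tumor sample, against 499 in the Dclk1+ normal sample and 341 in the Dclk1- normal sample.

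The genes most like each marker were taken as the 3 with the smallest root mean square distance between log2 levels, each gene centred over the 4 samples, among 9635 genes above background on all arrays. Lgr5 and Bmi1 were not above background on all arrays and have no such list. With 4 points each, close profiles arise among many genes, and likeness is a description. Hopx was closest to Ptpre, a receptor tyrosine phosphatase (distance 0.11), Lipc, hepatic lipase (0.11), and Hspa4l, a heat shock protein (0.14). Msi1 was closest to Lrrc56 (0.07), Doc2g (0.09) and Cdx1, an intestinal homeobox factor (0.09). Cdx1 was at 1290 in the Dclk1+ tumor sample and 405 in the Dclk1- tumor sample, against 1558 in the Dclk1+ normal sample and 475 in the Dclk1- normal sample. Ascl2 was closest to Sin3a (0.07), Rad21 and Zfp281 (0.09 each). Slc12a2 was closest to Mycbp2 (0.12), Reps1 (0.14) and Wwp1 (0.16), Tnfrsf19 to Rgcc (0.16), Nme4 and Maged1 (0.18 each), and Lrig1 to Nifk (0.08), Rpl14 and H2az1 (0.09 each).

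**Figure D4:**
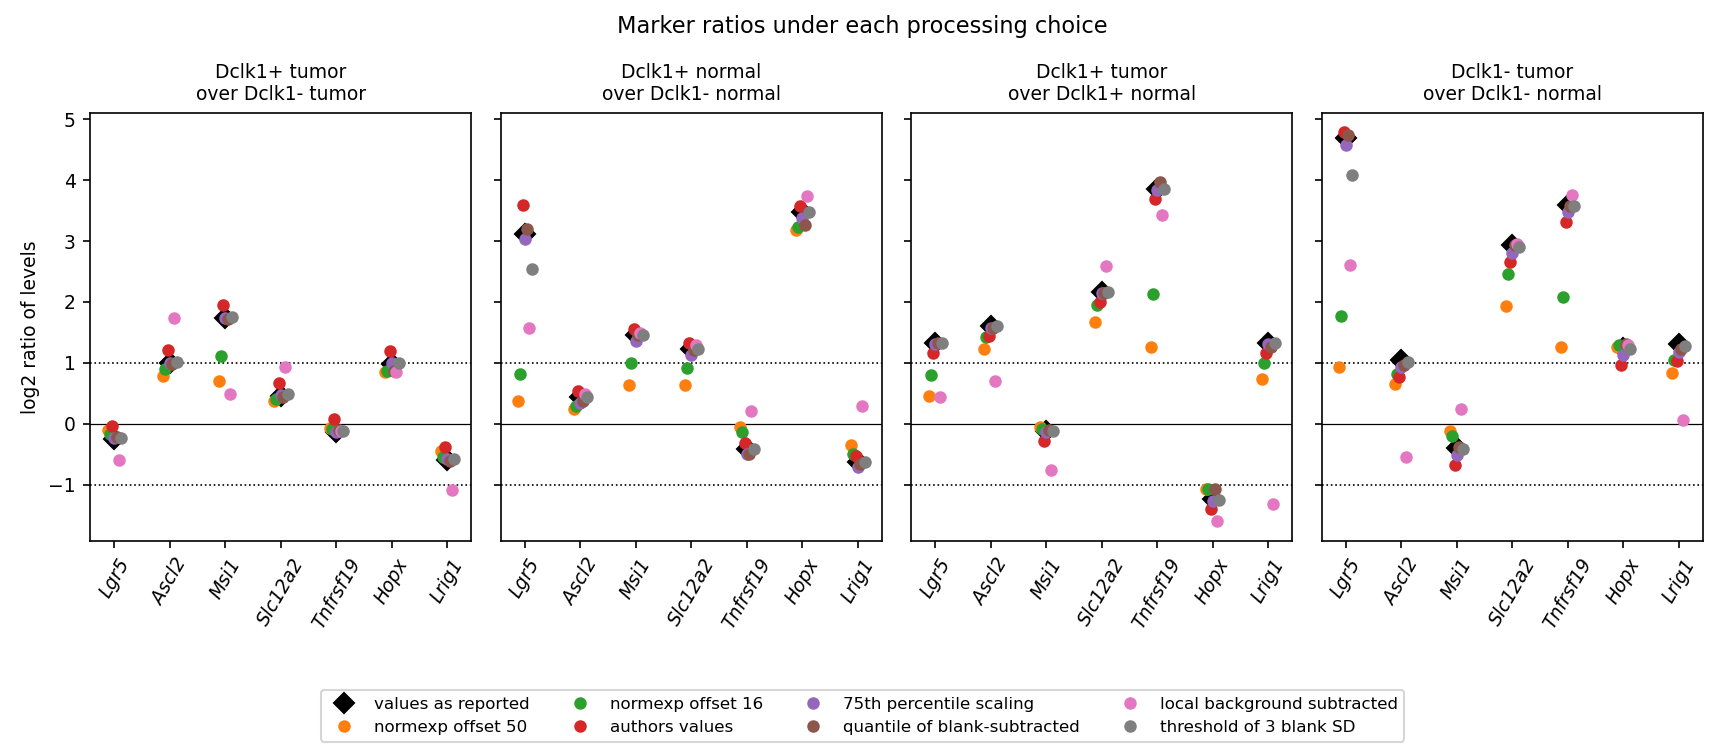
Log2 ratio of each measured marker (horizontal) in the 4 comparisons under the values as reported (diamonds) and 7 other processing choices (circles), with dotted lines at 2-fold. Ratios of Hopx keep their side of 0 throughout, the ratios of Lgr5 and Tnfrsf19 over normal cells shrink with normexp offsets, and with the local background subtracted Lrig1 and Ascl2 cross 0 from beyond 2-fold, as do some ratios of Msi1, Tnfrsf19 and Lrig1 that were within 2-fold.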

How the data were processed

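Each deposited scanner file gives a spot's median intensity and the background around it, with scans at 3 gains joined by straight-line fits, per the file headers; the dye was Cy5, per the labels. The series table the authors deposited holds intensity values with dim probes empty; set against the scanner values its scale is linear with a constant near the blank mean subtracted, and its column medians are 25.00, 24.99, 25.00 and 25.01 for the tumor pair (Dclk1+ before Dclk1-) and then the normal pair. The labels name no normalization software. The blank mean was subtracted, 4 flagged spots were left out, and arrays were scaled to a median of 100. Of 16631 probes with a platform symbol, 12622 were current RefSeq symbols and 3947 synonyms of 1 gene, and the brightest probe stood for each gene. A member above background in 1 sample of a pair got a bound against the higher of the other sample's threshold and its own level. Alternatives used limma 3.58.1 (R 4.3.3). The calculation of ratios was checked on simulated data with known ratios, which tests nothing about these samples. All 8 markers were named, and of each list the 2 highest and 2 lowest ratios past 2-fold could be named, with Dclk1, Lgr4, Lgr6 and Olfm4. Lrig3, Pecam1 and Cdh5, and the ratios of Fabp1 and Vil1 in the tumor pair, were added after their values were seen. Markers, lists and alternatives were chosen with earlier results of these data known. The number of arrays limits the precision.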

Additional observations from a re-analysis of the deposited data

Results flagged for a closer look

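Lgr5 had a Dclk1+ over Dclk1- ratio below 1 in tumor (0.842) and of at least 8.67 in normal epithelium, so the 2 tissues lay on opposite sides of 1, although the tumor ratio is within the spot error of 1. The normal ratio was 1.29 (0.929 in tumor) with normexp at an offset of 50 and 1.76 (0.895 in tumor) at an offset of 16, and with either offset 1 marker in place of 2 changed its ratio 2-fold between tissues. Hopx had a tumor over normal ratio of 0.425 in Dclk1+ cells and of 2.38 in Dclk1- cells, again on opposite sides of 1. Both rest on 1 array in each group, and neither difference was tested.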

How the results depend on the processing

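Markers at least 2-fold apart were recounted under 9 other choices, and counts not given here stayed within 1.5 times. The 5 markers higher in tumor in both sorts, recounted under the same choices as an addition made after seeing the data, were 2 with normexp and an offset of 50, 3 with an offset of 16, 2 with the local background subtracted and 2 at 4-fold. With normexp and an offset of 50, which compresses dim signals, 0 were higher in Dclk1+ over Dclk1- tumor, 1 in Dclk1+ over Dclk1- normal, 3 in Dclk1+ tumor over normal and 3 in Dclk1- tumor over normal, and the Dclk1+ ratio changed 2-fold between tissues for 1. The shares of all genes higher with that offset were 1.83%, 5.75%, 4.34% and 6.05% in the same order of comparisons. With an offset of 16, 1 was higher in Dclk1+ over Dclk1- normal, against 8.47% of all genes, and the ratio changed for 1. In Dclk1+ over Dclk1- tumor, where Ascl2 and Hopx sit at the threshold, 3 were higher with the authors' values, 2 with 75th percentile scaling and 2 with a threshold of 3 blank SD. With the local background subtracted, 1 was lower there, 2 were higher and 2 lower in Dclk1+ tumor over normal, the ratio changed for 4, and Lrig1 (0.404 in Dclk1+ tumor over normal) and Ascl2 (0.684 in Dclk1- tumor over normal) reversed; that background tracked each spot's own signal (correlation on the log scale 0.969 and 0.979 for Dclk1+ and Dclk1- tumor, 0.938 and 0.921 for Dclk1+ and Dclk1- normal). At 4-fold, 0, 2, 2 and 3 were higher in Dclk1+ over Dclk1- tumor, Dclk1+ over Dclk1- normal, Dclk1+ tumor over normal and Dclk1- tumor over normal, and 0 were lower in Dclk1+ tumor over normal. The cause was not tested. The share of higher among 2-fold calls over all genes was 61.8% with the authors' values in Dclk1+ over Dclk1- tumor (44.7% as reported) and 33.3% in Dclk1- tumor over normal (49.1% as reported), and in Dclk1+ tumor over normal it was 61.9% with the local background subtracted and 58.7% at 4-fold (41.9% as reported). The Lgr5 value in Dclk1- tumor over normal ran from 1.91 to 27.5, and in Dclk1+ over Dclk1- normal from 1.29 to 12.0. Tnfrsf19 in Dclk1+ tumor over normal ran from 2.40 to 15.6. No paired analysis was possible because each group has 1 array.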

Other observations

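Genes linked to reserve or regenerating stem cells also differed between the samples. Clu, a secreted chaperone that marks regenerating crypt cells in mice, was at 34845 in Dclk1+ tumor and 24335 in Dclk1- tumor, against 75.9 in Dclk1+ normal and 22.2 in Dclk1- normal cells. Anxa1, a gene of fetal-like epithelium, was at 200 in Dclk1+ tumor and 708 in Dclk1- tumor cells and was not above background in either normal sample. Cdkn1c, a cell cycle inhibitor, was at 271 in the Dclk1+ tumor sample and 169 in the Dclk1- tumor sample, against 3085 in the Dclk1+ normal sample and 20.7 in the Dclk1- normal sample. Like Hopx, it peaked in Dclk1+ normal cells and was lowest in Dclk1- normal cells. Among 8 genes of the list tested in Dclk1+ tumor over normal, 3 were at least 2-fold higher and 2 lower, against 14.9% and 20.7% of all genes.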
